A study of Mus musculus with 24 samples.

Results

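Heat shock proteins are chaperones that bind unfolded protein chains, and cells produce more of some of them when their proteins are damaged by heat, enzymatic digestion or other stress. The 9 genes described here are *Hspa1a*, *Hspa1b*, *Hspa8*, *Hsp90aa1*, *Hsp90ab1*, *Hsph1*, *Dnaja1*, *Dnajb1* and *Hspe1*, which are 9 of the 32285 genes counted in this series. They form a named set of heat shock and dissociation stress genes, and the set was chosen by a measured value: the level of *Hspa1a* differed between pools of mice in exhausted CD8 T cells of the tumor. Levels of the members in exhausted-like CD8 T cells are therefore given as a description with no test.

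The members fall into several roles. *Hspa1a* and *Hspa1b* encode the stress-inducible cytosolic Hsp70 and lie next to each other in the genome, and *Hspa8* encodes the constitutive form, Hsc70. *Dnaja1* and *Dnajb1* encode Hsp40 cochaperones, which deliver substrates to Hsp70 and stimulate its ATPase. *Hsph1* encodes Hsp110, a nucleotide exchange factor of Hsp70. *Hsp90aa1* and *Hsp90ab1* encode the inducible and the constitutive cytosolic Hsp90, and *Hspe1* encodes Hsp10, the lid of the mitochondrial Hsp60 chaperonin. Under stress the transcription factor HSF1 is released from chaperones, binds inverted repeats of the bases GAA in promoters and starts transcription. Enzymatic dissociation of solid tissue at a warm temperature is known to induce several of these genes together with immediate-early genes such as *Fos* and *Jun* before cells are captured.

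The cells came from tumors of Panc02, a mouse pancreatic cancer line, implanted under the skin of WT male C57BL/6 mice aged 6 to 7 weeks and harvested on day 38. All mice carried the tumor, and the 8 treatments were every combination of a vaccine and a pair of antibodies. The 4 without the vaccine were Isotype control, Anti-PD-1, Anti-CTLA-4, and Anti-PD-1 + Anti-CTLA-4. The 4 with it were PancVAX, PancVAX + Anti-CTLA-4, PancVAX + Anti-PD-1 + Anti-CTLA-4, and PancVAX + Anti-PD-1. PancVAX is a vaccine of synthetic peptides carrying tumor mutations, given at 50 ug a peptide on days 12 and 19 with adjuvant that includes a STING agonist, and mice without it received PBS. Anti-PD-1 (100 ug from day 12) and Anti-CTLA-4 (100 ug on days 15 and 22) block inhibitory receptors of T cells, and mice without an antibody received its isotype control. Tumors of each treatment were dissociated with enzymes and pooled. Each treatment had a library of the whole suspension and a library made after Percoll density separation, which the study used to enrich immune cells. There were 16 libraries in all, and pool here means the libraries of a treatment. How many mice made up a pool, and whether the libraries of a treatment share them, is not stated in the labels or the study's methods. Each *P* below therefore measures the spread between pools or libraries. The whole tumor and Percoll libraries were sequenced as separate batches, so preparation and batch cannot be told apart.

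The promoters of the 2 inducible Hsp70 genes are shown first because these genes are near-identical copies, and their separate counts are used throughout. *Hspa1a* lies at chr17:34969359-34972156 and *Hspa1b* at chr17:34956429-34959238 of mm10, both on the reverse strand. The 250 bases before each start (RefSeq, GRCm38.p6, reverse strand, 5′ to 3′) are given with the letters GAANNTTC, an inverted repeat of the kind that HSF1 binds, in capitals. *Dnajb1* (chr8:83608175-83612653) is added because it changed most often with the preparation, and in the first of its 2 windows the capitals mark the letters ATTGG, the complement of CCAAT.
Hspa1a, chr17:34972157-34972406: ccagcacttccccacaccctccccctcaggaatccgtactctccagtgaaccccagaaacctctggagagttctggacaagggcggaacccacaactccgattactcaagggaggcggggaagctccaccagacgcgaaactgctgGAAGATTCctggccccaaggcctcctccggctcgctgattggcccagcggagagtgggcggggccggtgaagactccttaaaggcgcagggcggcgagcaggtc
Hspa1b, chr17:34959239-34959488: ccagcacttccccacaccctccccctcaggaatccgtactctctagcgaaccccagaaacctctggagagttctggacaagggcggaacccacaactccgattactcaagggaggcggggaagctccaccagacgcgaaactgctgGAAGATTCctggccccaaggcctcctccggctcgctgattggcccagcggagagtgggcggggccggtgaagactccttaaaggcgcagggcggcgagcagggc
Dnajb1, chr8:83607925-83608174: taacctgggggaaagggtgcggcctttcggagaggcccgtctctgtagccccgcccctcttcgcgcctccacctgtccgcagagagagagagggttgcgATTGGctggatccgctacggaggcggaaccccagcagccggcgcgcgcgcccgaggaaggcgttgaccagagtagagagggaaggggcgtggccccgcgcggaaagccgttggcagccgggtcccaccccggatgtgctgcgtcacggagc

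The *Hspa1a* and *Hspa1b* windows were identical at 247 of 250 bases (98.8%), with an unbroken identical run of 201 bases. They differed only at positions -207, -204 and -2, counted back from the base before the start. Both held GAANNTTC from position -104. The first 50 bases after the starts were identical at 49 of 50 positions. Where in the genes the counted reads lie was not examined. Reads that do not reach a difference between the copies cannot be assigned to either, so the separate counts of *Hspa1a* and *Hspa1b* are uncertain.

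Windows were available for 6 of the 9 members and were searched for GAANNTTC, TTCNNGAA, GAANNTTCNNGAA with its complement TTCNNGAANNTTC, and CCAAT with its complement ATTGG. The first 2 motifs read the same on both strands, and the longer motif contains both of them. GAANNTTC stood in 6.69% of all 32851 mouse windows, TTCNNGAA in 7.17%, the longer motif in 0.466% and CCAAT in 33.8%. The window of *Hspe1* (gene at chr1:55088148-55091317) held the longer motif within an 18-base match at chr1:55088059-55088076 on the forward strand, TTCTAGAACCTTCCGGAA. *Hsph1* (chr5:149616843-149636498) held TTCNNGAA in both of its windows, and *Dnaja1* (chr4:40722468-40734965) held GAANNTTC in 1 of its 3 windows. Neither of the 2 *Dnajb1* windows held any of the inverted repeats, which says only that these letters are not in those windows, and ATTGG stood only in the window printed above. The remaining members lie at chr9:40801276-40805202 (*Hspa8*), chr12:110691036-110696395 (*Hsp90aa1*) and chr17:45567778-45573261 (*Hsp90ab1*).

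After the filters of the study, 57357 of 144994 barcodes were kept, and 14 cell classes had at least 10 cells in every library. The members and the stress lists below were left out of the genes used to cluster the cells. A UMI is a molecular tag that counts 1 captured RNA molecule. Defining markers were found where their class name needs them: *Cd79a* stood at 3701 CPM (UMIs per 1000000 UMIs of a class) in B-like cells, *Foxp3* at 398 in regulatory-like T cells, *Pdcd1* at 548 in exhausted-like CD8 T cells and *Csf1r* at 626 in macrophage/monocyte-like cells. A pair of clusters almost without *Ptprc*, the leukocyte antigen CD45 (10.4 and 15.2 CPM), carried the epithelial keratins *Krt8* and *Krt18* and are called the Sox9 Prelp Ogn cluster and the Cdc20 Rhox5 cluster by their leading genes. Fibroblast-like cells had *Col1a1* at 2510 CPM, but also *Krt8* (235), *Krt18* (330), *Sox9* (423) and *Prelp* (573). Their name therefore does not set this class fully apart from those clusters. Classes held between 521 cells (NK-like) and 13742 cells (macrophage/monocyte-like), with median depths from 1493 UMIs a cell in neutrophil-like cells to 6272 in the Sox9 Prelp Ogn cluster. The PancVAX + Anti-PD-1 Percoll library stood apart in its makeup: it held 2237 of the 8381 cells of the Sox9 Prelp Ogn cluster and 1183 of the 3589 cells left out of all classes. Percoll libraries held 4774 cells of the Sox9 Prelp Ogn cluster and whole tumor libraries 3607. In the Cdc20 Rhox5 cluster they held 1587 and 2347. The counts were 5695 and 8047 for macrophage/monocyte-like cells and 4590 and 3588 for neutrophil-like cells. Whether immune cells were enriched among the kept cells was not tested. Across libraries, 4171 kept barcodes (7.272%) had a sequence that another library also held. The share to be expected by chance was not worked out.

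*Hspa1a* was found at its highest mean levels in dendritic-like, B-like, naive-like CD8 T and macrophage/monocyte-like cells and was nearly absent from the Sox9 Prelp Ogn cluster. Levels are CPM, with the mean ± SD over the 16 libraries. In dendritic-like cells *Hspa1a* stood at 178.9 ± 92.2 (lowest 49.1, median 166, highest 430). In B-like cells it stood at 178.1 ± 251 (0, 98.8 and 955), with 3 libraries at 0. The mean was alike in these classes and the spread was not: the B-like libraries covered the whole range from no UMI to the highest level in the data.

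In naive-like CD8 T cells *Hspa1a* stood at 171.4 ± 159 (20.6, 128 and 657). In macrophage/monocyte-like cells it stood at 149.5 ± 55.7 (69.9, 139.5 and 275). In helper-like CD4 T cells the mean was 121.3 ± 95.2 and in NK-like cells 116.7 ± 87.1. Neighbouring classes in this upper part of the order did not differ beyond their spread. For macrophage/monocyte-like against helper-like cells, the exact two-sided sign-flip permutation test over 16 paired libraries gave an adjusted *P* of 0.05107.

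Regulatory-like T cells (70.1 ± 72.9), cytotoxic-like CD8 T cells (67.4 ± 45.6), exhausted-like CD8 T cells (64.2 ± 31.7) and fibroblast-like cells (59.4 ± 68.9) followed, and cycling-like T cells stood at 34.5 ± 32.9. In the Cdc20 Rhox5 cluster the mean of 31.6 ± 115 came from 1 library at 463.5, since the median library stood at 1.864. Neutrophil-like cells stood at 25.4 ± 25.2. In the Sox9 Prelp Ogn cluster the mean was 2.03 ± 3.02 (0, 0.809 and 11.2), below neutrophil-like cells in 16 of 16 libraries (exact sign-flip permutation, adjusted *P* = 0.0003357). Although its mean was higher, the Cdc20 Rhox5 cluster lay above neutrophil-like cells in only 2 of 16 libraries (exact sign-flip permutation, adjusted *P* = 0.007855). In these clusters 2 and 4 of the 16 libraries had no *Hspa1a* UMI, so no size is given for either difference.

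*Hspa1b* had another order. Its highest mean was in the Sox9 Prelp Ogn cluster, at 100.5 ± 42.6 CPM (lowest 44.7, median 93.5, highest 216; n = 16), above B-like cells at 72.2 ± 104 in 12 of 16 libraries (exact sign-flip permutation, adjusted *P* = 0.02131). Fibroblast-like cells stood at 71.8 ± 52.0. Macrophage/monocyte-like cells, among the highest for *Hspa1a*, stood at 35.2 ± 11.3, and neutrophil-like cells were the lowest at 11.2 ± 12.0. No other of the 11 neighbouring pairs tested for *Hspa1b* differed.

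*Dnajb1* was highest in the Sox9 Prelp Ogn cluster as well, at 710.3 ± 297 CPM (398, 617 and 1545). This was above fibroblast-like cells (274 ± 174) in 15 of 16 libraries (mean log2 difference 1.47, exact sign-flip permutation, adjusted *P* = 0.0006042). Macrophage/monocyte-like cells were the lowest for *Dnajb1*, at 62.6 ± 18.9, below neutrophil-like cells (89.8 ± 20.2) in 16 of 16 libraries (log2 difference 0.54, exact sign-flip permutation, adjusted *P* = 0.0003357). Macrophage/monocyte-like cells were thus near the top of the order for *Hspa1a* and last for *Dnajb1*.

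**Figure D1:**
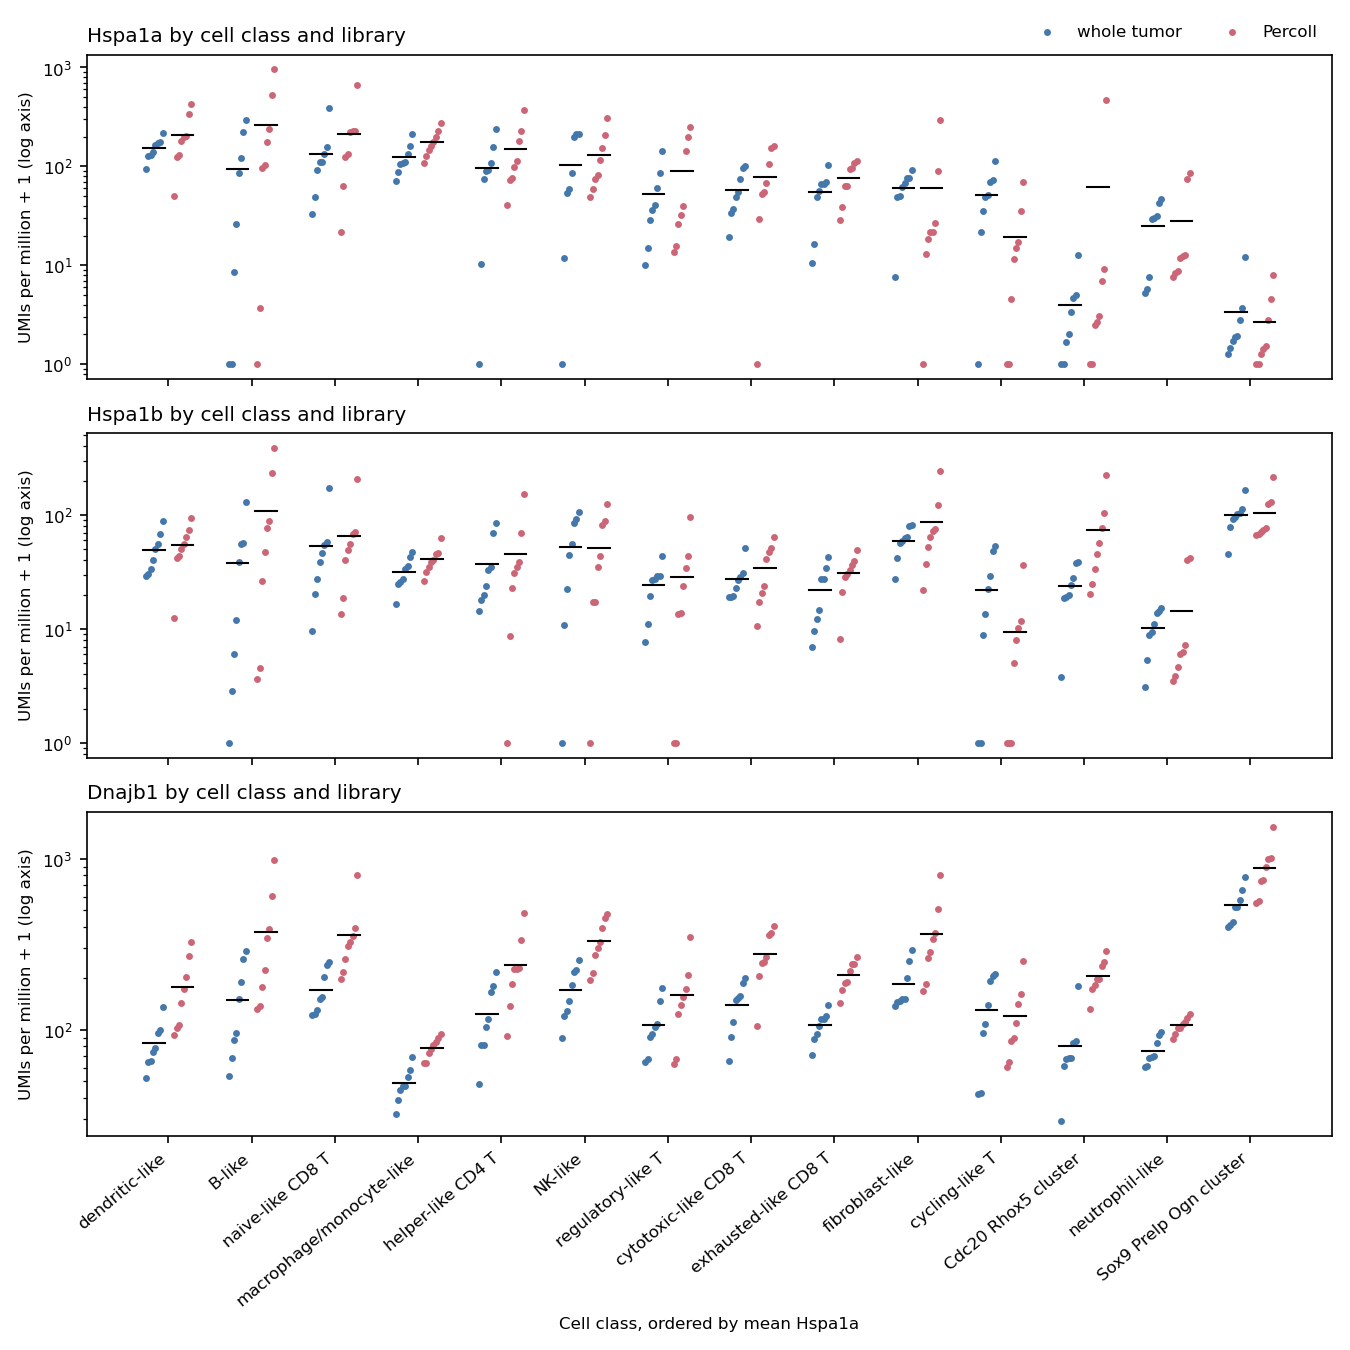
Levels of *Hspa1a*, *Hspa1b* and *Dnajb1* in 14 cell classes, in CPM + 1 on a log axis. Each dot is a library, coloured by preparation, and each line is the mean of the 8 libraries of that preparation. The Sox9 Prelp Ogn cluster is at the bottom for *Hspa1a* (mean 2.03) and at the top for *Hspa1b* (100.5) and *Dnajb1* (710.3).

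For 5 of the 6 remaining members, neutrophil-like cells were the class with the lowest mean. *Hspa8* was highest in the Sox9 Prelp Ogn cluster (2248 ± 387) and in dendritic-like cells (2228 ± 402) and lowest in neutrophil-like cells (563.7 ± 69.2). *Hsp90ab1* reached 4831 ± 515 in the Sox9 Prelp Ogn cluster and 4789 ± 421 in the Cdc20 Rhox5 cluster, which did not differ beyond their spread, and 709.7 ± 129 in neutrophil-like cells. *Hsp90aa1* was highest in the Cdc20 Rhox5 cluster (972 ± 120), above the Sox9 Prelp Ogn cluster (796 ± 208) in 13 of 16 libraries (exact sign-flip permutation, adjusted *P* = 0.01066). Neutrophil-like cells stood at 343 for *Hsp90aa1*.

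*Hspe1* was highest in the Cdc20 Rhox5 cluster (536.7 ± 75.0) and higher there than in naive-like CD8 T cells (391 ± 61.1) in 16 of 16 libraries. It was lowest in neutrophil-like cells (91.5 ± 30.2). *Hsph1* ranged from 75.4 ± 34.0 in naive-like CD8 T cells to 10.6 ± 6.38 in neutrophil-like cells. *Dnaja1* broke the pattern of low neutrophil levels, with 325 ± 65.9 in neutrophil-like cells, its highest mean in NK-like cells (393 ± 134) and its lowest in macrophage/monocyte-like cells (143.5 ± 20.1). Over all members, 99 of 117 neighbouring pairs were tested and 20 differed in this test over libraries, which are not independent. The 18 pairs not tested were those with exhausted-like CD8 T cells.

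**Figure D2:**
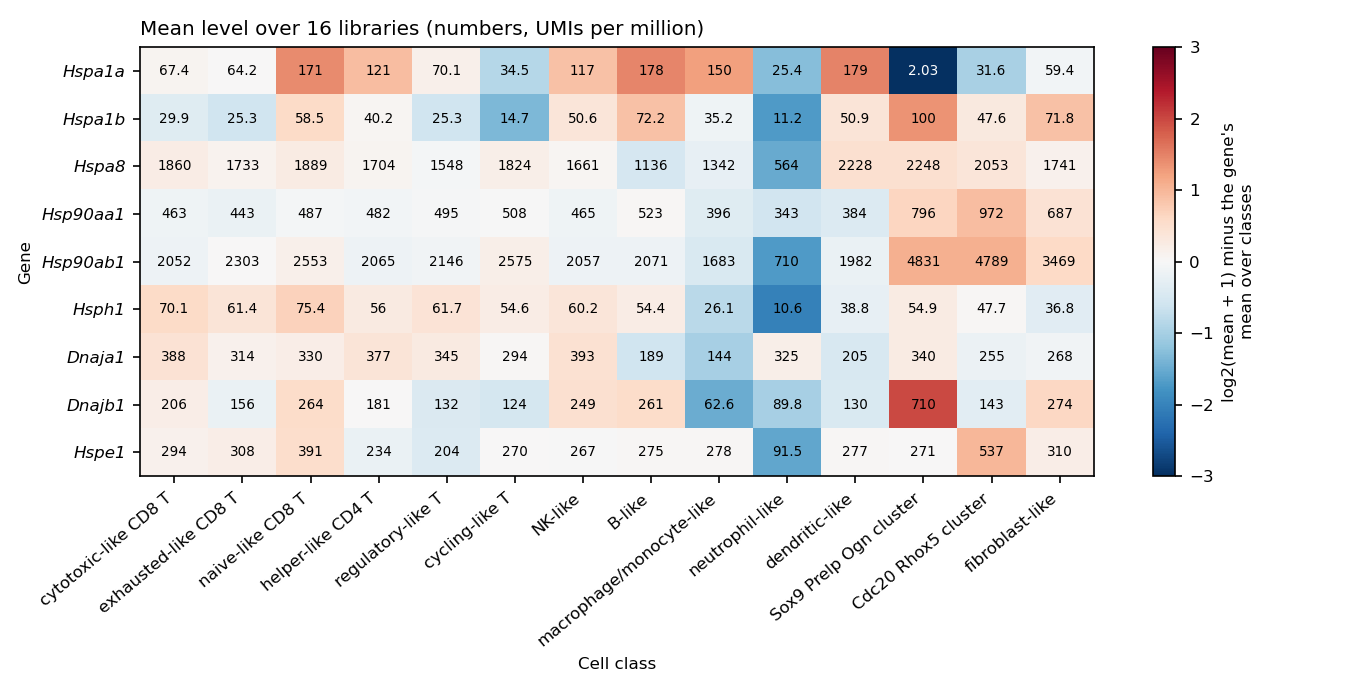
Mean level of the 9 members in 14 cell classes. The number in each cell is the mean in CPM over 16 libraries, and the colour is the log2 level minus that gene's mean over classes. Neutrophil-like cells are low for most members except *Dnaja1* (325), and the Sox9 Prelp Ogn cluster combines the lowest *Hspa1a* (2.03) with the highest *Hspa1b* (100.5).

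The split of UMIs between the near-identical copies depended on the class. The genes span 2798 and 2810 bases, so their lengths are nearly equal. How many reads reach a base that tells the copies apart was not measured. In macrophage/monocyte-like cells 80.89% of the UMIs of both genes were counted to *Hspa1a* (9153 against 2162 UMIs), and all 16 libraries lay between 76.1% and 83.8%. Dendritic-like cells had 77.2%, and every T cell class, NK-like, B-like and neutrophil-like cells had between 69.8% and 73.9%. These leukocyte classes were all on the same side.

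In the Sox9 Prelp Ogn cluster only 2.321% of the UMIs of the pair were counted to *Hspa1a* (113 against 4755 UMIs, 95% exact binomial interval 1.917% to 2.784%, counting error only). The highest of its 16 libraries reached 6.39%, below every macrophage/monocyte-like library. The Cdc20 Rhox5 cluster had 35.9% overall but 5.57% in its median library, and 1 of its libraries was over 50%. Fibroblast-like cells, which also carried markers of these clusters, had 44.95% (40.9% to 49.1%), with 7 of 16 libraries over 50%. Fibroblast-like cells were joined from clusters of 266 and 661 cells, and the share was not taken in each. Of their 927 cells, 302 came from the PancVAX + Anti-PD-1 Percoll library, where the share was 21.8%. Whether cells of those clusters enter this split was not tested. A library therefore held both kinds of split at once, in different classes. How the counting treated reads that match both copies was not tested.

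**Figure D3:**
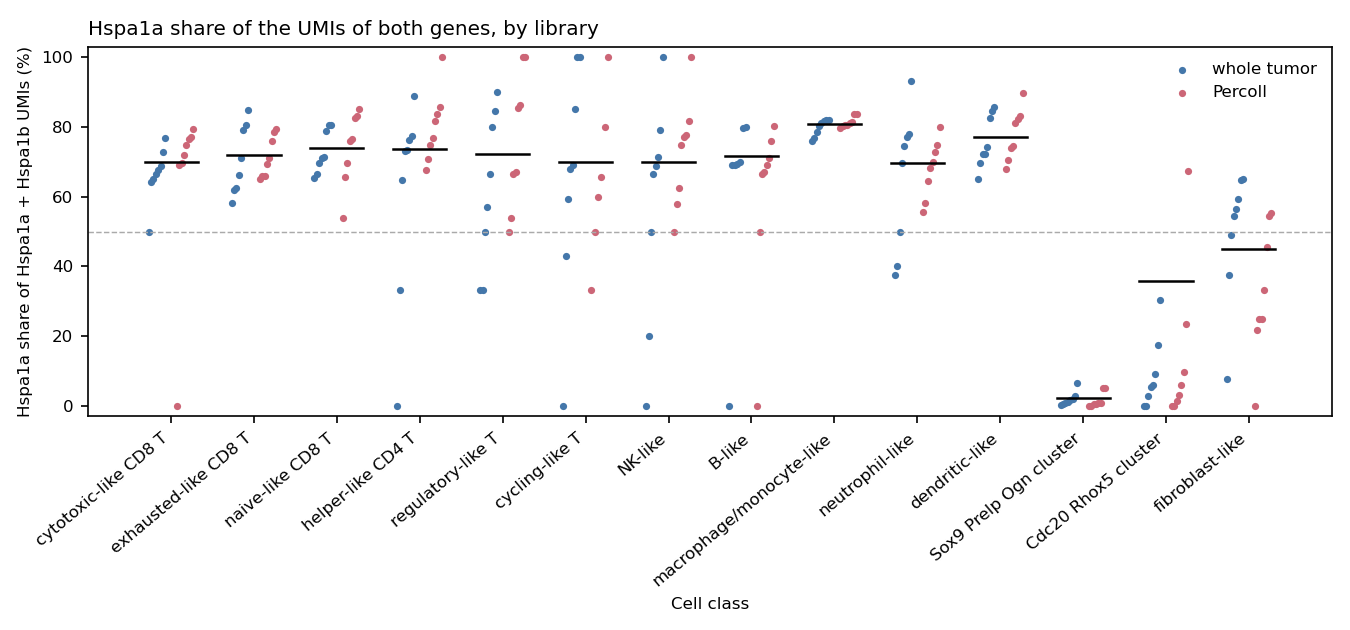
Share of *Hspa1a* in the UMIs of *Hspa1a* and *Hspa1b*, in percent, by cell class. Dots are libraries, coloured by preparation, lines are the share over all UMIs of a class, and the dashed line marks 50%. Leukocyte classes lie around 70 to 81%, fibroblast-like cells at 44.95% and the Sox9 Prelp Ogn cluster at 2.321%.

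*Hspa1a* was held by few cells of each class. To set classes of different depth side by side, each cell was thinned to 1000 UMIs. After thinning, 9.70% of naive-like CD8 T cells, 8.66% of dendritic-like cells and 7.481% of macrophage/monocyte-like cells had an *Hspa1a* UMI, against 16.18% of macrophage/monocyte-like cells without thinning. The shares were 5.90% in B-like cells and 3.21% in cytotoxic-like CD8 T cells. The lowest shares were 0.783% in neutrophil-like cells, 0.381% in the Cdc20 Rhox5 cluster and 0.191% in the Sox9 Prelp Ogn cluster (95% exact binomial interval 0.109% to 0.310%). The median depths of these 3 classes were 1493, 2978 and 6272 UMIs a cell. Free RNA in the droplets can give a UMI to cells that do not express the gene. Its level was not measured. These 3 classes are named because their shares were the lowest, so they do not give that level.

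Without thinning, 16.18% of macrophage/monocyte-like cells and 16.35% of naive-like CD8 T cells had an *Hspa1a* UMI, and the top 5% of cells held 68.41% and 65.2% of these UMIs. In B-like cells 7.933% had one, and the top 5% held 90.05%. Other members were found in the same cells, counted after thinning. In B-like cells with an *Hspa1a* UMI, *Hspa1b* was found in 46.91%, against 1.585% of the other B-like cells. *Dnajb1* was found in 56.17% against 12.37%, and *Hsph1* in 26.54% against 2.978%. All 3 shares were higher in B-like cells with *Hspa1a*.

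The same held in macrophage/monocyte-like cells, at lower shares: *Hspa1b* was found in 16.44% of cells with *Hspa1a* and in 1.424% of the others, and *Dnajb1* in 13.62% and 4.428%. In helper-like CD4 T cells *Hspa1b* was found in 47.95% and 0.7974%. Cells with *Hspa1a* were uneven over pools, so these contrasts also hold differences between pools. Without thinning, 39 of 158 B-like cells had it in PancVAX + Anti-CTLA-4 Percoll, against 1 of 166 in Isotype control Percoll. PancVAX + Anti-CTLA-4 was also the highest B-like pool for *Hspa1b*, *Dnajb1* and *Hsph1*. Cells of a library are not independent, and reads of 1 copy counted to the other would add to the *Hspa1b* shares, so these are descriptions.

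Single barcodes carried some class totals. In the PancVAX Percoll library, the Cdc20 Rhox5 cluster held 348 *Hspa1a* UMIs in 5 of 162 cells, and 341 of them came from 1 barcode, in which they made 4.769% of 7150 UMIs. That barcode alone held 84.83% of the 402 *Hspa1a* UMIs of the class, and the other 15 libraries had 54 UMIs in 27 of 3772 cells. In neutrophil-like cells 1 barcode held 72 UMIs (18.09% of the class), and in the Sox9 Prelp Ogn cluster 1 barcode held 34 (30.09%). In macrophage/monocyte-like cells no barcode held more than 0.4916% of the UMIs.

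The comparison of preparations asks which genes differed between Percoll and whole tumor cells of the same class and treatment. *Dnajb1* rose in Percoll in 9 of 13 classes, and B-like cells had the most members that rose, 6 of 9 (over all genes in B-like cells 7.1% changed and 4.91% rose). A gene was counted as changed at an adjusted *P* below 0.05 and a log2 fold change beyond 0.5 in edgeR's quasi-likelihood test with pool as a block. Of the 117 member and class pairs, 114 passed the filter on low counts, and 21 of them (18.4%) changed, 19 higher and 2 lower in Percoll. Over all genes and the same 13 classes, 5.54% changed, 3.23% higher and 2.31% lower. The median log2 fold change of the member pairs was 0.21, while class medians over all genes lay between -0.04 and 0.02. Without the pool of the PancVAX + Anti-PD-1 Percoll library that stood apart, 22 member pairs changed, 20 of them among these 21.

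In macrophage/monocyte-like cells *Dnajb1* stood at 31.1, 45.9 and 68.2 CPM (lowest, median, highest) in whole tumor and at 62.5, 78.1 and 92.9 in Percoll libraries. It was higher in Percoll in 8 of 8 pools, with slight overlap of the groups (log2 fold change 0.79, SE 0.0668, edgeR adjusted *P* = 5.78e-09). In the Sox9 Prelp Ogn cluster it stood at 398, 524 and 785 in whole tumor and at 550, 825 and 1545 in Percoll. It was again higher in 8 of 8 pools and the groups overlapped (0.69, SE 0.0825, edgeR adjusted *P* = 8.9e-06).

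In B-like cells *Dnajb1* stood at 52.5, 123 and 287 in whole tumor and at 130.5, 282 and 988 in Percoll (log2 fold change 1.40, SE 0.183, edgeR adjusted *P* = 6.14e-05). The exception among 8 pools was PancVAX + Anti-PD-1, with 258.6 in whole tumor and 176.7 in Percoll, from 17 and 25 B-like cells. In the Cdc20 Rhox5 cluster it stood at 28.1, 67.3 and 179 against 131, 197 and 289 (1.33, SE 0.148, edgeR adjusted *P* = 3.8e-06), higher in 7 of 8 pools. The exception there was PancVAX + Anti-PD-1 + Anti-CTLA-4, with 178.8 against 173.3.

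*Dnajb1* also rose in naive-like CD8 T cells (1.03), dendritic-like cells (1.00), helper-like CD4 T cells (0.84), NK-like cells (0.83) and cytotoxic-like CD8 T cells (0.77). The call in helper-like cells was lost without the PancVAX + Anti-CTLA-4 pool (0.64) and with no pool block (0.80). In 4 classes *Dnajb1* did not pass: fibroblast-like cells (0.91, edgeR adjusted *P* = 0.0531), regulatory-like T cells (0.48, 0.203), cycling-like T cells (-0.09, 0.898) and neutrophil-like cells, where the size of 0.48 was below the limit.

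*Hspa1a* rose in Percoll in 3 of the 12 classes where it was tested. In macrophage/monocyte-like cells it stood at 69.9, 108 and 210 CPM in whole tumor and at 107, 168 and 275 in Percoll, higher in 8 of 8 pools with overlapping groups (log2 fold change 0.60, SE 0.0549, edgeR adjusted *P* = 1.77e-08). In B-like cells it stood at 0, 55.1 and 294 against 0, 138.5 and 955, higher in 6 of 8 pools (1.31, SE 0.243, edgeR adjusted *P* = 0.00222). In naive-like CD8 T cells the log2 fold change was 0.72 (SE 0.181, edgeR adjusted *P* = 0.00826). The naive-like call was lost without Anti-PD-1 (0.48) or without Anti-CTLA-4 (0.60) and in DESeq2 (0.47, adjusted *P* = 0.765), and the naive-like and B-like calls were lost with no pool block (0.61 and 1.34).

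*Hspa1b* rose in B-like cells (1.45, SE 0.22, edgeR adjusted *P* = 0.000321), a call lost with no pool block, and in the Cdc20 Rhox5 cluster (1.39, SE 0.236, edgeR adjusted *P* = 0.000292). *Hsp90aa1* rose in B-like (0.74), naive-like CD8 T (0.64) and NK-like cells (0.58), the last of which was lost without the PancVAX + Anti-PD-1 + Anti-CTLA-4 pool (0.50). *Hspa8* passed the size limit only in B-like cells (0.65, edgeR adjusted *P* = 3.27e-05), although its log2 fold change was above 0 in 12 of 13 classes and its adjusted *P* was below 0.05 in 7 of them. The *Hspa8* call was lost in cells with at least 2000 UMIs (0.49). *Hsph1* rose in B-like cells (0.75, edgeR adjusted *P* = 0.0275), a call lost in 8 of 17 alternatives, among them those without PancVAX (0.60), PancVAX + Anti-CTLA-4 (0.82), Anti-CTLA-4 (0.71) or Anti-PD-1 (0.82).

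The changes in the other direction were few. *Hsph1* fell in cycling-like T cells (-0.89, edgeR adjusted *P* = 0.0456), a call lost in 14 of 17 alternatives and in 7 of the 8 that leave out a pool. *Hspe1* fell in neutrophil-like cells (-0.62, edgeR adjusted *P* = 0.000293), a call lost in cells with at least 2000 UMIs (-0.60, edgeR adjusted *P* = 0.0563). No class passed for *Hsp90ab1* (4 classes at an edgeR adjusted *P* below 0.05 but under the size limit, 6 at an unadjusted *P* below 0.05) or for *Dnaja1* (smallest edgeR adjusted *P* = 0.0594, 4 classes at an unadjusted *P* below 0.05), and DESeq2 called 0 of 13 for each.

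RNA quality and depth moved with the preparation in most classes. The median library's mitochondrial share was 4.06% in whole tumor and 3.23% in Percoll B-like cells, 3.53% and 2.70% in macrophage/monocyte-like cells, and 3.12% and 0.413% in neutrophil-like cells. It went the other way in the Cdc20 Rhox5 cluster, from 2.90% to 3.23%. With cells limited to under 5% mitochondrial UMIs, 21 member pairs changed, 19 of them shared with the 21 above. The median library's depth rose from 2514 UMIs a cell in whole tumor to 4494 in Percoll in the Cdc20 Rhox5 cluster, and from 3676 to 4535 in macrophage/monocyte-like cells. With cells limited to at least 2000 UMIs, 19 member pairs changed, 17 of them shared with the 21.

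**Figure D4:**
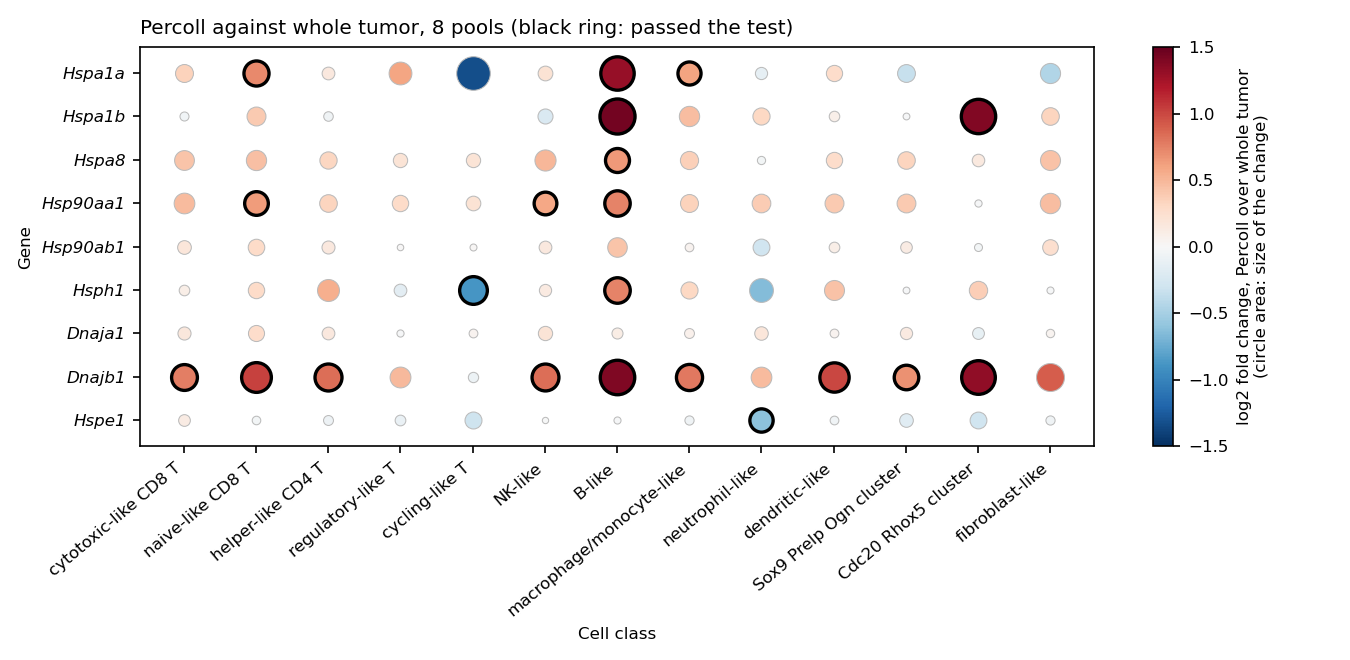
Log2 fold change of each member, Percoll over whole tumor, in 13 cell classes. Each circle is a gene in a class, coloured by the fold change, and a black ring marks an edgeR adjusted *P* below 0.05 with a log2 fold change beyond 0.5. Blank positions, 3 in all, were not tested. *Dnajb1* has rings in 9 classes and B-like cells have rings for 6 members.

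Whether the size of the *Hspa1a* difference varied between classes was tested over 78 pairs of classes with an exact two-sided sign-flip permutation test over 8 pools. No pair passed after adjustment (smallest adjusted exact permutation *P* = 0.4353), and 6 had an unadjusted *P* below 0.05. The smallest unadjusted exact permutation *P* was 0.007812, the smallest that 8 pools allow, for cycling-like T cells against macrophage/monocyte-like cells. In cycling-like T cells 3 of the 16 libraries had no *Hspa1a* UMI, so the size of that difference depends on the 1 CPM added before the log and is not given.

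Other stress genes of lists chosen with earlier results of these data known were compared in the same way. Of 29 immediate-early genes, which are induced within minutes of a stimulus, 137 of 358 gene and class pairs (38.3%) rose in Percoll and 7 fell (1.96%), with a median log2 fold change of 0.45. *Ppp1r15a*, a regulator of recovery from translational arrest, rose in 12 of 13 classes. *Gadd45b*, a stress response gene, rose in 11 (2.02 in cytotoxic-like CD8 T cells, SE 0.105, edgeR adjusted *P* = 1.45e-27), and the transcription factor *Egr1* rose in 8. In naive-like CD8 T cells 17 of 27 tested genes rose, against 3.49% of all genes in that class. *Zfp36*, which encodes an RNA-destabilizing protein, rose in 7 (1.29 in cytotoxic-like CD8 T cells).

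In neutrophil-like cells 2 of 29 immediate-early genes rose and 7 fell, among them *Fos* (-1.91), *Btg2* (-1.19), *Zfp36* (-1.19) and *Junb* (-0.74). Over all genes in that class 7.22% rose and 7.39% fell. *Fos* rose in 6 other classes and *Junb* in 5. Among endoplasmic reticulum chaperones, 23 of 198 pairs (11.6%) rose and 0 fell in edgeR (11 were lower at an unadjusted *P* below 0.05), with a median log2 fold change of 0.08. They were led by *Hspa5*, the Hsp70 of that compartment (0.85 in cytotoxic-like CD8 T cells, 9 of 13 classes), and its cochaperone *Dnajb9* (1.31, 6 of 11 classes). *Ddit3*, a transcription factor of the unfolded protein response (0.865 in cytotoxic-like CD8 T cells, 6 of 11 classes), and the disulfide isomerase *Pdia3* (0.54 in the Cdc20 Rhox5 cluster, 1 of 13) rose as well.

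Among 35 other HSF1 targets and cytosolic cochaperones, 30 of 369 pairs (8.13%) rose and 5 (1.36%) fell, with a median of 0.02. Over all genes 3.23% rose and 2.31% fell. *Ubb*, which encodes a tag for protein degradation and is not a chaperone, rose in 9 of 13 classes, which are 9 of the 30 rises. The totals also hold a gene that is not reported here, so the 30 rises do not describe the cochaperones as a group. *Bag3*, an Hsp70 cochaperone, rose in 4 of 8 classes. In neutrophil-like cells the Hsp40 gene *Dnajb6* rose by 0.67, while the chaperonin subunit *Cct2* fell by 0.65, *Cacybp* by 0.60 and *Hspd1*, which encodes Hsp60, by 0.52 on the log2 scale. The small heat shock protein gene *Cryab* fell in macrophage/monocyte-like cells (-0.80). Of the mitochondrial chaperones, 1 of 80 pairs rose (*Lonp1* in B-like cells, 1.02) and 1 fell (*Hspd1*).

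The effect of each agent was tested over the 8 pools, with both preparations summed and 4 pools with the agent against 4 without. These are the pools between which the rule for the members was set, so the tests in other classes are not independent of it. PancVAX changed 4 of 117 member pairs (3.42%), all higher, against 1.23% over all genes (0.792% higher). There was 1 call each in cycling-like T, helper-like CD4 T and cytotoxic-like CD8 T cells and the Cdc20 Rhox5 cluster. In these classes PancVAX changed 12.7%, 3.35%, 2.74% and 0.12% of all genes. The first 3 of these shares are above the 1.23% of all classes together. Anti-PD-1 changed 2 (1.71%), both lower, against 0.0792% (0.0617% lower). Anti-CTLA-4 changed 2, 1 in each direction, against 0.0175% (0.0113% higher and 0.00617% lower). The 8 calls were for *Hspa1a*, *Hspa1b*, *Dnaja1* and *Dnajb1*. For the other 5 members, 0 of 65 pairs passed for each agent in edgeR and in DESeq2, with 14 at an unadjusted edgeR *P* below 0.05 for PancVAX, 10 for Anti-CTLA-4 and 7 for Anti-PD-1. None of the 8 calls held in every alternative.

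Of the 8 calls, 3 were *Hspa1a* in the Cdc20 Rhox5 cluster and rested on the barcode described above. The PancVAX pool stood at 219.1 CPM and the next highest, Isotype control, at 8.73. The other 6 pools lay between 1.13 and 6.82. The log2 fold changes were 3.63 for PancVAX (SE 0.548, edgeR adjusted *P* = 0.0114), -4.36 for Anti-PD-1 (SE 0.561, 0.00411) and -4.66 for Anti-CTLA-4 (SE 0.597, 0.00192). Without that barcode they were 0.32 (edgeR adjusted *P* = 0.802), -0.74 (0.96) and -1.81 (0.999), and none passed. They were also lost in DESeq2 (2.44, -2.41 and -3.42) and without the PancVAX pool (0.83, -1.27 and -2.18), and each was lost without 1 further pool: Isotype control for PancVAX (1.33), PancVAX + Anti-PD-1 for Anti-PD-1 (-1.57) and PancVAX + Anti-CTLA-4 for Anti-CTLA-4 (-2.45).

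In regulatory-like T cells *Hspa1a* was lower in the pools with Anti-PD-1. The pools with it stood at 21.2, 25.4, 34.8 and 48.5 CPM. The pools without it stood at 48.6, 119, 142 and 153. The groups did not overlap, but the Isotype control pool (48.6) lay next to PancVAX + Anti-PD-1 (48.5). The log2 fold change was -1.84 (SE 0.286, edgeR adjusted *P* = 0.00503), from 200 UMIs in all. The call was lost without the PancVAX pool (-1.69, edgeR adjusted *P* = 0.128), without PancVAX + Anti-PD-1 + Anti-CTLA-4 (-1.59, 0.11), with 16 libraries as samples (-1.75, 0.608), and in whole tumor libraries alone (-0.19, 0.991).

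In helper-like CD4 T cells *Dnajb1* was higher in the pools with PancVAX. The pools without it stood at 86.9, 117, 156.9 and 162 CPM and those with it at 176, 182, 290 and 313, with no overlap (log2 fold change 0.94, SE 0.217, edgeR adjusted *P* = 0.0176). The call was lost without Anti-PD-1 + Anti-CTLA-4 (0.65), Anti-CTLA-4 (0.80), PancVAX + Anti-CTLA-4 (0.80) or PancVAX + Anti-PD-1 + Anti-CTLA-4 (0.81), in Percoll libraries alone (0.87) and under 5% mitochondrial UMIs (0.99). *Hspa1b* in the same cells was higher with Anti-CTLA-4, at 35.4, 48.8, 53.1 and 108 against 8.99, 19.5, 22.3 and 25.5 without it. These groups did not overlap either (1.64, SE 0.267, edgeR adjusted *P* = 0.0088), and the call was lost in 8 of 19 alternatives. It was lost in DESeq2 (1.59, adjusted *P* = 0.411), without PancVAX (1.39), PancVAX + Anti-PD-1 (1.71) or PancVAX + Anti-CTLA-4 (1.28), in each preparation alone (1.25 in whole tumor and 2.14 in Percoll), with 16 libraries as samples (1.64) and under 5% mitochondrial UMIs (1.64).

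The remaining calls were for PancVAX and had overlapping groups. *Dnajb1* in cycling-like T cells stood at 56.0, 84.3, 92.2 and 139 without PancVAX and at 79.3, 163, 179 and 226 with it (0.67, SE 0.204, edgeR adjusted *P* = 0.0302). This call was lost in 6 of the 8 fits that leave out a pool, at log2 fold changes of 0.41 to 0.78, and was kept without PancVAX and without Isotype control. It was also lost in DESeq2 (0.65) and in Percoll libraries alone (0.44). In this class 12.7% of all genes changed with PancVAX. The pools with the 2 highest values had median depths of 3364, 3677 and 4285 UMIs a cell in 3 of their 4 libraries, against 5751 to 7478 in the other 13 libraries, and the part of depth in this call was not tested beyond the limit of at least 2000 UMIs, where the value was 0.67. *Dnaja1* in cytotoxic-like CD8 T cells stood at 250.5, 269, 358.5 and 382.5 without PancVAX and at 328.5, 475, 540.1 and 543 with it (0.60, SE 0.143, edgeR adjusted *P* = 0.00553). It was lost without PancVAX + Anti-PD-1 (0.45), PancVAX + Anti-CTLA-4 (0.43) or Anti-PD-1 + Anti-CTLA-4 (0.42), in DESeq2 (0.56) and in Percoll libraries alone (0.60).

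Of the other stress lists, PancVAX raised 25 of 368 immediate-early pairs (6.79%, against 0.792% over all genes) and lowered 1 (0.272%, against 0.439%). Of the 25, 13 were in cycling-like T cells and 10 in cytotoxic-like CD8 T cells, where 12.7% and 2.74% of all genes changed in either direction. PancVAX raised 5 of 392 pairs of the HSF1 and cochaperone list (1.28%), 1 of 206 pairs of endoplasmic reticulum chaperones (0.485%) and 0 of 95 pairs of mitochondrial chaperones (5 higher and 1 lower at an unadjusted edgeR *P* below 0.05). *Klf2*, a transcription factor of resting T cells, rose by 3.05 and *Socs3*, a feedback inhibitor of cytokine signaling, by 3.68 in cycling-like T cells. This class joined clusters of 364, 130 and 109 cells, the first led by *Gzmd* and *Gzme*, and its pools differed in depth as given above. The part of makeup or depth in these rises was not tested. *Nfkbia* (1.13) and *Nr4a1* (1.10) rose in cytotoxic-like CD8 T cells, and the pair that fell was *Fosl2* in cycling-like T cells (-0.67). Of the chaperone lists, *Dnajb6* (0.87) and *Cct4* (0.77) rose in helper-like CD4 T cells, *Ubb* (0.56) in cycling-like T cells and *Hspa5* (0.53) in cytotoxic-like CD8 T cells. Each antibody changed 1 immediate-early pair: Anti-PD-1 lowered *Klf2* in cytotoxic-like CD8 T cells (-0.68) and Anti-CTLA-4 raised it in NK-like cells (0.84). In edgeR each changed 0 of 680 pairs of the other 3 lists combined, with 38 at an unadjusted *P* below 0.05 for either antibody.

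In exhausted-like CD8 T cells, where the rule was set, *Hspa1a* was lowest in the Isotype control pool and highest in the Anti-CTLA-4 pool in both preparations when measured in CPM. Exhausted T cells are antigen-experienced cells that carry inhibitory receptors such as PD-1. In whole tumor libraries *Hspa1a* stood at 9.58 CPM in Isotype control, 15.6 in PancVAX + Anti-PD-1 and 48.2 in PancVAX. It stood at 56.0 in Anti-PD-1, 64.6 in PancVAX + Anti-CTLA-4 and 65.2 in PancVAX + Anti-PD-1 + Anti-CTLA-4. The Anti-PD-1 + Anti-CTLA-4 library was at 68.9 and Anti-CTLA-4 at 101. A pair of pools, Isotype control and PancVAX + Anti-PD-1, thus lay well below the other 6.

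In Percoll libraries the lowest were again Isotype control at 27.6 and PancVAX + Anti-PD-1 at 37.8, but second place from the bottom depended on 1 barcode: PancVAX + Anti-CTLA-4, at 94.3, had 32 of its 52 UMIs in 1 cell and stood at 36.6 without it. Anti-PD-1 was at 62.1, Anti-PD-1 + Anti-CTLA-4 at 62.4 and PancVAX at 93.95. PancVAX + Anti-PD-1 + Anti-CTLA-4 was at 106.5 and Anti-CTLA-4 at 113. The highest of the 16 libraries was 11.82 times the lowest. Percoll was higher in 7 of 8 pools, with Anti-PD-1 + Anti-CTLA-4 as the exception, and in 6 of 8 without that barcode.

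These levels came from few cells. The Isotype control whole tumor library had 13 *Hspa1a* UMIs in 5 of 255 cells (95% exact Poisson interval of the level 5.10 to 16.4, counting error only). The Anti-CTLA-4 Percoll library had 261 UMIs in 69 of 487 cells (99.9 to 128). After thinning to 1000 UMIs, the share of cells with *Hspa1a* ran from 0.588% in Isotype control Percoll to 7.80% in Anti-CTLA-4 Percoll. Isotype control was lowest by this measure as well, at 1.57% in whole tumor. The highest whole tumor library by this measure was Anti-PD-1 + Anti-CTLA-4 (6.93%), above Anti-CTLA-4 (5.84%), with overlapping 95% exact binomial intervals (4.226% to 10.62% and 3.44% to 9.189%). Over the class as a whole, the highest barcode held 32 of 1300 UMIs (2.462%).

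The other members covered narrower ranges in these cells. Over 16 libraries *Hspa1b* ran from 5.90 to 48.7 CPM and was lowest in Isotype control in both preparations. *Dnajb1* ran from 70.0 to 267, with whole tumor libraries between 70.0 and 139 and Percoll libraries between 143 and 267, and so did not overlap between preparations. *Hsp90aa1* (299 to 596) was also lowest in Isotype control and, like *Hspa8* (1322 to 2189) and *Hsp90ab1* (1897 to 2590), was higher in Percoll in 8 of 8 pools. *Dnaja1* (223 to 476) was highest in PancVAX + Anti-PD-1, which was next to the lowest for *Hspa1a*. *Hspe1* (265 to 357) was higher in Percoll in only 1 of 8 pools.

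**Figure D5:**
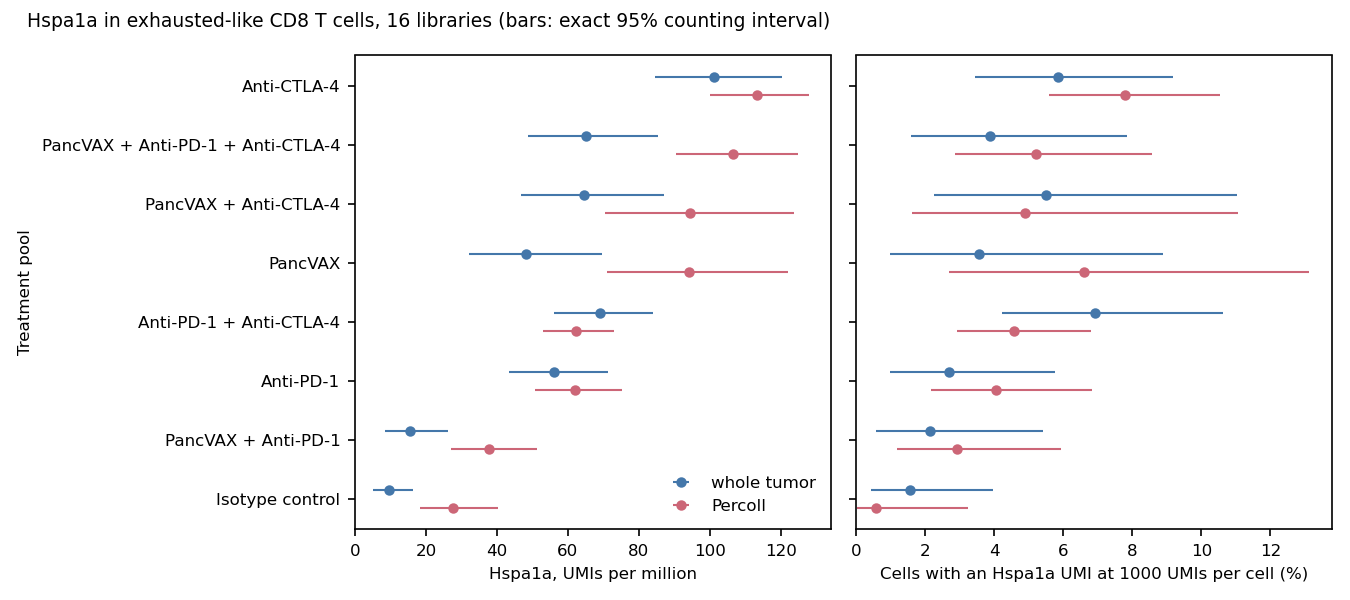
*Hspa1a* in exhausted-like CD8 T cells by library. The left panel gives CPM with 95% exact Poisson intervals, and the right panel the percent of cells with an *Hspa1a* UMI at 1000 UMIs a cell with 95% exact binomial intervals. Both intervals cover counting error only. Isotype control is lowest (9.58 and 27.6) and Anti-CTLA-4 highest (101 and 113) in both preparations on the left.

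The order of pools in other classes was partly alike. Over the 13 other classes, the Isotype control pool was the lowest for *Hspa1a* in 7, with a median rank of 8 of 8. The highest was PancVAX + Anti-CTLA-4 in 6 classes, PancVAX in 5 and Anti-CTLA-4 in 2. In 3 of these classes the first place rested on 1 barcode. Without the barcode with the most *Hspa1a* UMIs in each class, PancVAX + Anti-CTLA-4 was highest in 5 and PancVAX in 4, and in neutrophil-like cells PancVAX went from the highest pool (51.2 CPM) to the lowest (7.84). By that count Isotype control was the lowest in 7 classes and the highest in 1, the Cdc20 Rhox5 cluster (8.73). Classes of a library share mice and dissociation, so they do not repeat each other. In B-like cells PancVAX + Anti-CTLA-4 had an *Hspa1a* UMI in 34 of 184 whole tumor and 39 of 158 Percoll cells without thinning. PancVAX + Anti-PD-1 + Anti-CTLA-4 had it in 0 of 90 and 0 of 116, although that pool was among the highest in exhausted-like cells. In CPM, B-like *Hspa1a* in whole tumor and Percoll ran from 0 and 0 in that pool and 7.50 and 2.66 in Isotype control to 220.2 and 525.5 in PancVAX and 294 and 955 in PancVAX + Anti-CTLA-4. The counts of 0 allow a share of cells with a UMI of up to 3.33% and 2.59%.

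Whether a pool high in whole tumor was also high in Percoll was tested over 8 pools for each member and class. Of 117 relations outside exhausted-like cells, 94 had a correlation above 0, and 4 passed after adjustment. *Dnaja1* passed in regulatory-like T cells (Pearson's *r* = 0.955, exact permutation, adjusted *P* = 0.02031; Spearman's rho = 0.976, exact permutation, adjusted *P* = 0.04643; *r* = 0.922 without the 2 pools farthest from the median). It also passed in the Sox9 Prelp Ogn cluster (*r* = 0.945, rho = 0.929, exact permutation adjusted *P* = 0.02031 for *r*; 0.868 without 2 pools). *Hsp90aa1* passed in B-like cells (*r* = 0.944, rho = 0.905, adjusted exact permutation *P* = 0.03192; 0.813), and *Hsp90ab1* in helper-like CD4 T cells (*r* = 0.9005, rho = 0.905, 0.04135; 0.749). For *Hspa1a* in macrophage/monocyte-like cells *r* was 0.899 and rho 0.929 (exact permutation, adjusted *P* = 0.06052 for *r*), and in neutrophil-like cells *r* was -0.8465 and rho -0.738 (exact permutation, adjusted *P* = 0.06855 for *r*; -0.512 without 2 pools). Only *Dnaja1* in regulatory-like T cells passed by rho.

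The genes whose levels followed *Hspa1a* most closely over libraries were *Hsp90aa1* and *Dnajb1*, both members. The measure was the mean Pearson's *r* over 14 classes, with exhausted-like CD8 T cells included as a description, each across 16 libraries that share depth, pool and batch, among 2571 genes with at least 20 CPM in every class. *Hsp90aa1* (0.393) and *Dnajb1* (0.383) were followed by the immediate-early gene *Jun* (0.3195), *Uimc1* (0.294), *Dnajc7* (0.291), *Sdhc* (0.289) and *Uqcrc2* (0.286). *Vim* (0.274), *Acat1* (0.272) and the immediate-early gene *Atf3* (0.270) completed the first 10. Of these, *Uqcrc2* was above 0 in all 14 classes. Over the 13 other classes alone, 8 of the 10 stayed among the first 10, which left *Jun* as the only immediate-early gene among them, and *Sdhc* and *Atf3* (rank 14) gave way to *Tram1* (0.290) and *Hist1h1c* (0.283). *Hspa8* ranked 18, *Hsp90ab1* 22, *Dnaja1* 164 and *Hspe1* 281, while *Hspa1b* and *Hsph1* were below the level limit.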

How the data were processed

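Single-cell RNA was measured in 16 libraries of Panc02 tumors with a 10x Genomics 5′ kit on a NextSeq 500, and 8 T cell receptor libraries of the same series were not used. Values are UMI counts per gene and barcode, which the authors made with Cell Ranger 4.0.0 on mm10 and deposited as raw counts in a single matrix with no normalization (Seurat is also named in the submitters' processing notes). Barcodes were tied to libraries by the library number in the labels, and groups came from the labels. Library totals ranged from 77132398 to 176233225 UMIs.

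The filters of the study were applied: 200 to 3000 genes, 1000 to 10000 UMIs, under 10% mitochondrial UMIs, no hemoglobin UMI, and genes found in at least 3 barcodes. No doublet caller was run, and the upper limits were the only guard against doublets. Cells were clustered on 25 principal components of 2000 variable genes, without the members and the stress lists, after regression of cell cycle scores and a Harmony-type correction for preparation, with 20 neighbors and Louvain communities at resolution 0.6 (seed 1, python-igraph 0.11.9, scikit-learn 1.9.0). Clusters were named "-like" from marker lists, T cells were clustered again, and cluster names were rebuilt here, so they need not match those of the study.

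Counts were summed per class and library or pool and tested with edgeR 4.0.16 in R 4.3.3 (TMM, filterByExpr, quasi-likelihood). *P* values were adjusted by Benjamini-Hochberg over all genes of a class. Preparation was fitted with pool as a block, a pairing that comes from the labels, since each treatment has 1 library of each preparation. The study's methods tested cells as replicates with batch as a covariate, which was not followed. Levels were compared between classes on log2(CPM + 1) with exact permutation tests (scipy 1.17.1). The steps were tested on simulated counts with 200 genes changed 2-fold: for preparation, 92.5% were recovered among 10640 genes in macrophage/monocyte-like cells and 67% among 6151 in B-like cells. For Anti-CTLA-4, 88.5% were recovered among 11346 genes and 46% among 7410 in the same classes. DESeq2 1.42.0, other size factors, filters, clusters and pool omissions were the alternatives. Refits, exhausted-like levels and pool orders without the barcode with the most *Hspa1a* UMIs in each class, and the ranking of genes like *Hspa1a* without exhausted-like cells, were chosen after seeing the data.

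The members and lists were chosen with earlier results of these data known. All 9 members are named in every class, with the 10 genes most like *Hspa1a* and up to 4 genes of each list and direction with the smallest adjusted *P*, except that a gene counted in the totals of the HSF1 target list is not reported here. Intervals cover counting error only. Promoters are from RefSeq.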

Additional observations from a re-analysis of the deposited data

Results flagged for a closer look

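In each preparation the 8 libraries of a class were searched for a value set apart from the others: the gap to its nearest neighbour, as a share of the whole range, had to pass Dixon's 95% limit. Of 234 groups outside exhausted-like CD8 T cells, 29 had such a library. The limit flags about 1 in 20 groups of independent, normally distributed values. Here the levels were not transformed, some rest on 1 barcode, and groups share libraries. The number expected by chance is therefore not known. Values are CPM. Of the 29, 18 were in PancVAX + Anti-CTLA-4, and all but 1 of the 29 were the highest of their group.

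In the PancVAX + Anti-CTLA-4 Percoll library, naive-like CD8 T cells stood apart for *Hspa1a* (656.7), *Hspa1b* (207.6), *Hsph1* (164.2), *Dnaja1* (560.7) and *Dnajb1* (799.2). The Sox9 Prelp Ogn cluster stood apart there for *Hspa1b* (216), *Hsp90aa1* (1430) and *Dnajb1* (1545), helper-like CD4 T cells for *Hspa1b* (152.6) and regulatory-like T cells for *Hspa1b* (95.72). In the whole tumor library of the same treatment, naive-like CD8 T cells stood apart for *Hspa1a* (389.8) and *Hspa1b* (170.7), B-like cells for *Hspa1b* (129.2) and *Hsp90aa1* (610.3), and the Sox9 Prelp Ogn cluster for *Hspa1a* (11.15, with 34 of 37 UMIs in 1 of 507 cells) and *Hsp90aa1* (939.8). Cycling-like T cells stood apart for *Hsph1* (138.1) and cytotoxic-like CD8 T cells for *Hspa1b* (50.57). Both libraries of this pool thus stood apart in naive-like cells for both inducible Hsp70 genes and in the Sox9 Prelp Ogn cluster for *Hsp90aa1*.

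In the PancVAX Percoll library, *Hspa1a* stood at 463.5 in the Cdc20 Rhox5 cluster (341 of 348 UMIs in 1 barcode), where the next library was at 8.133, and *Hspa1b* at 225.1. In fibroblast-like cells of that library *Hspa1a* stood at 292.1 and *Hspa1b* at 244.5. Among whole tumor libraries, Isotype control was the highest for *Hspa1a* in the Cdc20 Rhox5 cluster (11.73, from 17 UMIs in 1 cell), and for *Dnajb1* there the highest was PancVAX + Anti-PD-1 + Anti-CTLA-4 (178.8). Anti-PD-1 was the highest for *Hspe1* in fibroblast-like cells (475.3). In regulatory-like T cells Anti-CTLA-4 was the highest for *Hsp90aa1* in whole tumor (733.2) and for *Hsp90ab1* in Percoll (2603). In Percoll, Anti-PD-1 + Anti-CTLA-4 was the highest for *Hspa1b* in cycling-like T cells (35.65) and the lowest for *Hspa8* in macrophage/monocyte-like cells (1200, next 1437).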

How the results depend on the processing

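The 29 called member and class pairs gave 497 values under alternatives, of which 421 kept the call, 76 kept the direction and lost it, and 0 reversed. Pairs that were not called have no such values. For preparation, 12 of the 21 calls held in every alternative, and for the agents 0 of 8 did. The count of changed members for preparation was 16 with no replicate block (15 shared with the paired fit), 20 in DESeq2 and 25 with no filter on low counts, and 19 to 26 without each pool in turn. For PancVAX (4) it was 2 in DESeq2, 12 with no filter, 2 with cells under 5% mitochondrial UMIs, 0 in Percoll libraries alone and 1 to 7 without each pool. For Anti-PD-1 (2) it was 1 in DESeq2, 6 with no filter, 1 under 5% mitochondrial UMIs, 0 with 16 libraries as samples, 0 in whole tumor alone, 1 in Percoll alone, 1 without the barcode with the most *Hspa1a* UMIs and 0 to 3 without each pool. For Anti-CTLA-4 (2) it was 0 in DESeq2, 8 with no filter, 0 under 5% mitochondrial UMIs, 0 with 16 libraries, 0 in whole tumor alone, 0 in Percoll alone and 0 to 5 without each pool. The cause was not tested. Over all genes and 13 classes, the preparation call count was 4442, and 2748 in DESeq2. PancVAX called 1197, against 644 in DESeq2, 2385 with no filter, 725 in whole tumor alone, 434 in Percoll alone and 794 without the triple combination. Anti-PD-1 called 77, against 735 with no filter, 47 under 5% mitochondrial UMIs, 23 with Leiden clusters, 36 with 16 libraries, 14 in whole tumor and 10 in Percoll alone, and 25 to 116 without each pool. Anti-CTLA-4 called 17, against 402 with no filter, 34 with 16 libraries, 9 in whole tumor alone and 14 to 33 without each pool. Without thinning, the share of macrophage/monocyte-like cells with *Hspa1a* was 16.18% in place of 7.481%. Of 378 levels recomputed with other cell filters or Leiden clusters, 373 moved by less than 1 SD. Of the pairs of neighbouring classes, 20 differed, and 16 to 19 did in those alternatives. Each agent was compared over 4 pools against 4, which limits what these data can show, and *Hspa1a* in regulatory-like T cells rested on 1 to 49 UMIs a library.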

Other observations

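Barcodes that did not pass the filters held the members at other levels. Values are the median CPM over 16 libraries, of all classes together. In 5810 barcodes with a mitochondrial share at or over the limit, *Hsph1* stood at 103.9 against 44.16 in barcodes that passed (higher in 15 of 16 libraries), and *Hsp90aa1* at 822.3 against 548.8 (16 of 16). *Hspa1b* stood at 56.42 against 48.52 (13 of 16). *Hspa1a* was lower there, at 26.35 against 73.66 (higher in 1 of 16), as were *Dnajb1*, at 138.1 against 257.2 (0 of 16), and *Hspe1*, at 145.7 against 291.6 (0 of 16). Within these barcodes the inducible Hsp70 copies thus went in different directions, and which cell classes they came from was not resolved.

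In the 63320 barcodes over the upper limits of genes or UMIs, *Hspa1a* stood at 11.84, below the barcodes that passed in 16 of 16 libraries. *Hspa8* (2412 against 1680), *Hsp90ab1* (5063 against 2759) and *Dnajb1* (375.9 against 257.2) were higher there in 16 of 16 libraries. These barcodes were not clustered.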
